A study of Homo sapiens with 8 samples.

Results

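The genes described here are 42 components and direct feedback targets of the Wnt and beta-catenin pathway, chosen by symbol: Wnt secretion factors, secreted antagonists, receptors, the destruction complex, TCF/LEF factors, their cofactors and targets. A member was measured where the array annotation paired a probe set with its symbol, which held for 40 of the 42 members among 18417 genes tested. Each of the 40 had 1 probe set, and none of these was paired with a further gene. PORCN and TCF7 were not listed in the annotation and were not analysed here.

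The cells were HCT116, an established human colorectal cancer line that carries a mutant and a wild-type allele of CTNNB1, the gene of beta-catenin. They expressed a short hairpin RNA, which in the shControl line was a control and in the shCDK8 line targeted CDK8, the cyclin-dependent kinase of the Mediator complex. All cells were starved of serum for 40 h in McCoy's medium, and RNA was taken at that point (starved) or after 30 min in McCoy's 5A medium with 10% fetal bovine serum (serum). The 4 groups were therefore starved shControl, serum-treated shControl, starved shCDK8 and serum-treated shCDK8 cells, with 2 arrays each, 8 Affymetrix arrays in all. Every cell carried the CTNNB1 mutation, and no group without it was included. The sources used here give neither the number of hairpins nor whether each line was a clone or a pool, so a difference between the lines holds the knockdown and anything else in which they differed. They also do not say whether the duplicates came from separate cultures. The p-values therefore measure no more than how far these samples lie apart, a spread that may be technical, and 2 arrays per group set the precision of every value.

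In the Wnt pathway, secreted Wnt ligands bind Frizzled receptors and the co-receptors LRP5 and LRP6, which halts a destruction complex of APC, axin, GSK3 and casein kinase 1 that otherwise marks beta-catenin for degradation. Beta-catenin then enters the nucleus and joins TCF/LEF factors on their target genes. Several targets, among them AXIN2, RNF43, ZNRF3, DKK1 and NOTUM, encode inhibitors of the pathway and so form a negative feedback. In colonic crypts this pathway maintains stem cells, and most colorectal cancers carry a mutation in APC or CTNNB1. The mutant beta-catenin of HCT116 lacks the serine that casein kinase 1 phosphorylates. CDK8 is known as a kinase that acts on beta-catenin dependent transcription in colorectal cancer cells, and the comparison of the lines asks how its depletion bears on gene expression before and after serum.

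TCF/LEF factors bind a short core sequence, and 4 stretches of promoter are shown, from members with and without this core near their start. DKK1, RNF43 and TNIK differed between the lines, and SP5 showed no detectable difference. The 4 were picked as examples and do not stand for the members as a whole. Each is 300 bases from RefSeq (GRCh38.p14), running from 250 bases before to 50 after the transcription start, printed 5' to 3' on the gene's strand, with matches to the core in capitals. The core was searched in 4 forms, which were CTTTGAA and the form CTTTGAT, then CTTTGTA and the form CTTTGTT, on both strands, so that a match on the opposite strand reads as its reverse complement. DKK1 (chr10:52314031-52314330, plus strand) encodes a secreted Wnt antagonist, and its promoter held CTTTGAA at -95 and CTTTGTT at -76 from the start. SP5 (chr2:170715087-170715386, plus strand) encodes a zinc-finger factor known as a direct Wnt target, and its promoter held the core 3 times, at -148, -109 and -84. RNF43 (chr17:58417485-58417784, minus strand) and TNIK (chr3:171460359-171460658, minus strand) had no match in this window.
DKK1: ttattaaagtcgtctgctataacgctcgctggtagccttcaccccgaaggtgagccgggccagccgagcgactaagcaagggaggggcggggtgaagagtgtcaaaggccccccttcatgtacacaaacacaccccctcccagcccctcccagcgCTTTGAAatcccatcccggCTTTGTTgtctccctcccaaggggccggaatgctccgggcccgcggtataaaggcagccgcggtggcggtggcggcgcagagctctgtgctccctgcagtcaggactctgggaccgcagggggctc
SP5: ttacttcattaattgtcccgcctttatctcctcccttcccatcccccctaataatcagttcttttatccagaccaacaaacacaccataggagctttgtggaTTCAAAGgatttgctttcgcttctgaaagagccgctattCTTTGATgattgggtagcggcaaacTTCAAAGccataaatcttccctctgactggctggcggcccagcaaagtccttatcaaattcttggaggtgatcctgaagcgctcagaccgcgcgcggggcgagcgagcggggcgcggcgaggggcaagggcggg
RNF43: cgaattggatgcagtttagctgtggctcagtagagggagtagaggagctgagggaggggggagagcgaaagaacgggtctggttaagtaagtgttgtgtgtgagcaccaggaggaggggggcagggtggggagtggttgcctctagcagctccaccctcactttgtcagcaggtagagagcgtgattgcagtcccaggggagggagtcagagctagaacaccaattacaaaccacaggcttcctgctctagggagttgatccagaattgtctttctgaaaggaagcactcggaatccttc
TNIK: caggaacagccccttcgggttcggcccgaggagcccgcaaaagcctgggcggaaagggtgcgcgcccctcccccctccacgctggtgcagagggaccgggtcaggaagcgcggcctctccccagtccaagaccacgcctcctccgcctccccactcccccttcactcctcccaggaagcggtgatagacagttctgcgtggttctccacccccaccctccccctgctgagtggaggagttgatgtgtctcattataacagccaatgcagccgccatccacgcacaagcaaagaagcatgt
Among all 35116 promoters of the same length, 4829 (13.8%) held at least 1 of the 4 forms. CTTTGAA was found in 4.43%, CTTTGAT in 2.62%, CTTTGTA in 2.77% and CTTTGTT in 5.2% of them. Of the 28 members whose promoter entry was searched, 5 held the core in any entry. These were DKK1, SP5, WNT3, TCF7L2 and TCF7, for TCF7L2 and TCF7 in 1 of several entries. A match is a description of the letters in this window, and many TCF/LEF sites lie far from the start.

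The values are log2 probe set levels, and n is 2 arrays per group throughout. The median level of an array over genes lay between 7.07 and 7.11, and the correlation of duplicates over genes was 0.997 to 0.998. The probe set of the targeted gene, which is also assigned to ADRA1B, gave 9.22 ± 0.02 (SD) for starved shControl cells and 9.20 ± 0.02 with serum, against 7.04 ± 0.07 and 7.05 ± 0.01 in shCDK8 cells. It was 4.53-fold lower before serum and 4.45-fold lower after it (limma, adjusted p over all probe sets = 1.44e-05 and 1.71e-05). Of 11 colonic epithelial markers, EPCAM, KRT8, KRT18 and KRT19 lay in the top percentile of gene means, while CDH17 lay below the 25th percentile of 5.55. VIL1, KRT20 and LGALS4 lay not far above that percentile, with means of 5.61, 5.94 and 6.31. CDX1, CDX2 and CDH1 lay in between, at 7.34, 8.02 and 9.43. Between the lines, KRT8 was higher in shCDK8 cells by 0.44 starved and 0.42 with serum, and KRT18 by 0.55 and 0.56, whereas KRT19 was lower by 0.31 and 0.34. CDH1 passed with serum alone, higher by 0.26 (adjusted p = 0.018). Its starved mean was also higher, 9.52 in shCDK8 against 9.31 in shControl cells, but it did not pass there. In all, 3 colonic markers (27.3%) passed the test in starved and 4 (36.4%) in serum-treated cells, where 13.4% and 14.2% of all genes passed. In either, 0 of 6 mesenchymal and 0 of 6 measured blood and endothelial markers passed. Among these, DCN, LUM, PTPRC, CD3E, PECAM1 and VWF lay below the 25th percentile, with means from 3.33 (LUM) to 5.35 (VWF). The rest lay above it, up to 8.18 (COL1A1). At such low levels a lack of calls says little. The part of all these markers in the differences below was not tested.

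The lines were compared first, starved and then serum-treated. The feedback inhibitors RNF43, DKK1, AXIN2 and NOTUM, the nuclear cofactors TNIK and TLE1 and the ligand carrier WLS were higher in shCDK8 than in shControl cells, whereas the receptor FZD6 and the kinase CSNK1A1 were lower. Other members of the same roles did not pass at either time, among them the inhibitors ZNRF3, NKD1 and DKK4, the cofactors BCL9L and PYGO2, and CTNNB1, APC and AXIN1. Across the members, 11 of 40 (27.5%) passed at an adjusted p below 0.05 (limma, Benjamini-Hochberg over all genes) in starved cells, where 13.4% of all genes passed. Of these, 9 were higher in shCDK8 cells, against 7.13% of all genes, and 2 were lower, against 6.28% of all genes. In serum-treated cells 12 of 40 (30%) passed, against 14.2% of all genes, 10 of them higher (7.7% of all genes) and 2 lower (6.54%). The other 29 and 28 members did not pass. The shares of all genes include genes below the 25th percentile of levels, where only 3 of the 40 members lay. With those genes dropped, more genes passed out of fewer tested, 2760 starved and 2908 with serum, against 2470 and 2624 when all were tested. The share of all genes that passed was then larger, and lay nearer to the shares of the members given above. The shares are therefore not matched by level. The members were also chosen with earlier results of these data known. The median difference over the 40 members was 0.07 starved and 0.05 with serum, close to the medians over all genes of -0.01 and -0.01. All 11 members that passed in starved cells passed in the same direction on the separate arrays of serum-treated cells, which was 91.7% of the 12 there. Over all genes the corresponding shares were 76% and 71.5%. In bulk RNA of this kind, fewer cells expressing a gene and less RNA per cell cannot be told apart.

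**Figure D1:**
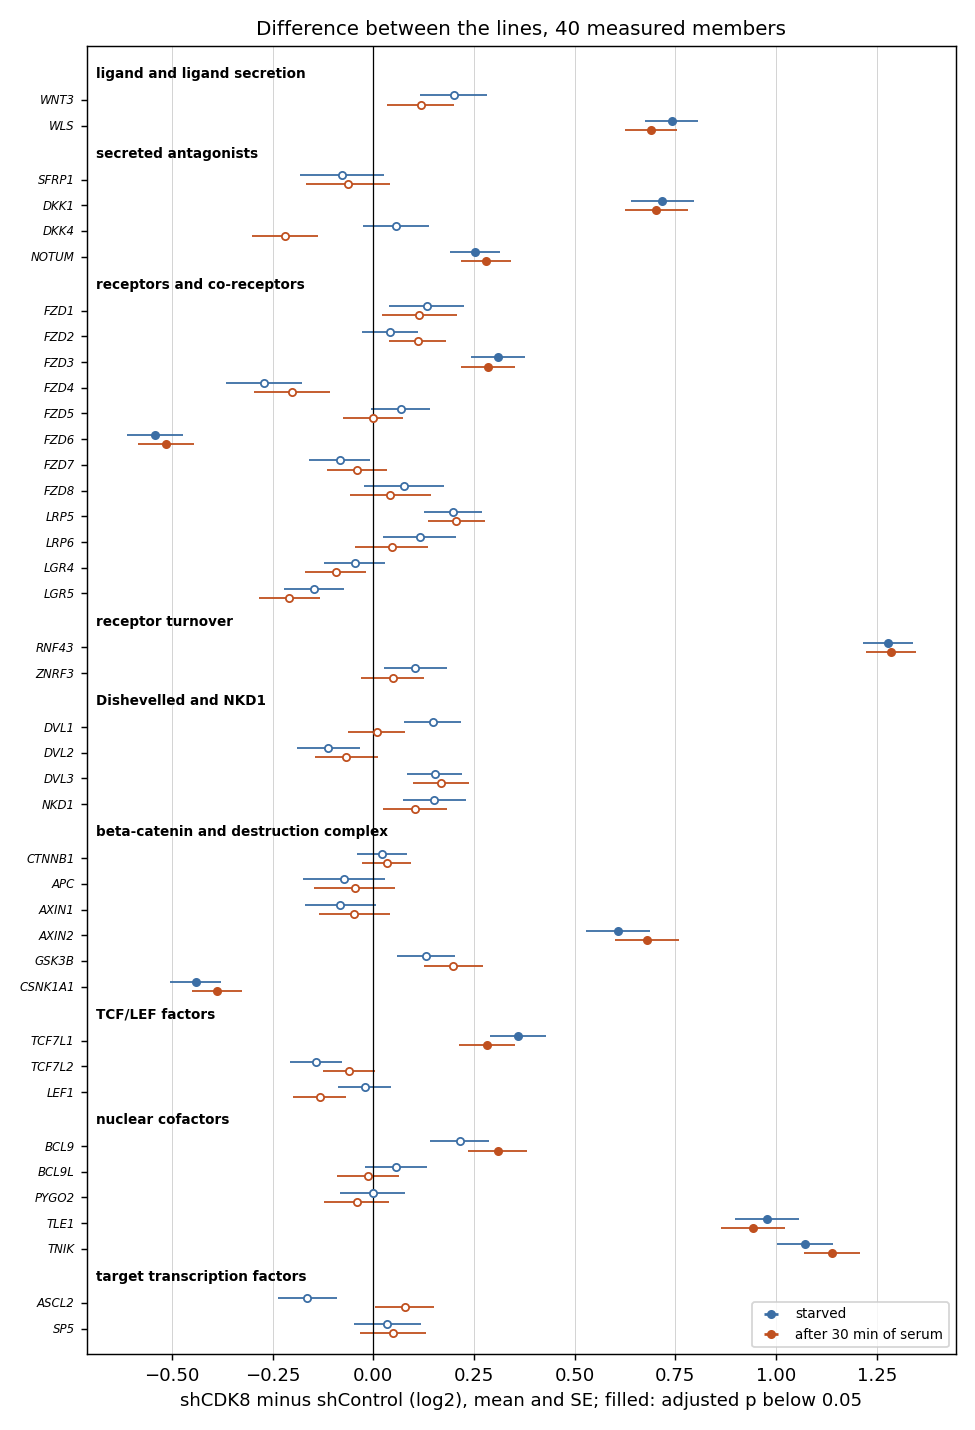
Difference in log2 level between shCDK8 and shControl cells for the 40 measured members, starved and serum-treated, with standard errors; the members that passed the test are marked. RNF43 and TNIK stand furthest to the right at both times, FZD6 and CSNK1A1 furthest to the left, and most other members lie near 0.

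Wnt secretion was represented by WLS, the membrane protein that carries Wnt ligands from the Golgi to the cell surface, and by the ligand WNT3. WLS read 10.41 and 10.38 in starved shControl cells, 10.43 and 10.49 in serum-treated shControl cells, 11.14 and 11.14 in starved shCDK8 cells, and 11.11 and 11.19 in serum-treated shCDK8 cells. Every shCDK8 array was above every shControl array. The difference was 0.74 ± 0.06 (SE) on the log2 scale before serum, 1.67-fold (adjusted p = 7.17e-05), and 0.69 ± 0.06 after it, 1.61-fold (adjusted p = 0.000105). WNT3 differed by 0.20 and 0.12 in the same direction and did not pass, except in the average without starved shCDK8 array 2 (0.21, adjusted p = 0.034).

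Of the 4 secreted antagonists, DKK1 and NOTUM were higher in shCDK8 cells. DKK1 binds LRP5 and LRP6 and keeps them from Wnt. It read 9.48 and 9.50 in starved shControl cells, 9.69 and 9.81 in serum-treated shControl cells, 10.20 and 10.21 in starved shCDK8 cells, and 10.36 and 10.54 in serum-treated shCDK8 cells. The groups did not overlap, and within each line the serum-treated arrays lay above the starved ones. DKK1, whose promoter with 2 core matches is printed above, differed between the lines by 0.72 ± 0.08, 1.64-fold (adjusted p = 0.000303), starved and by 0.70 ± 0.08, 1.63-fold (adjusted p = 0.00033), with serum. NOTUM, an enzyme that removes the lipid Wnt needs for receptor binding, read 6.98, 6.94, 6.85 and 6.90 in shControl cells (starved, then serum) and 7.21, 7.22, 7.15 and 7.15 in shCDK8 cells. The lines did not overlap, but the difference was small, 0.25 ± 0.06 (adjusted p = 0.0249) and 0.28 ± 0.06 (adjusted p = 0.0143). Leaving out any of the 4 arrays compared ended the call, with adjusted p from 0.0647 to 0.114 starved and from 0.0578 to 0.103 with serum. SFRP1, a soluble decoy with a Frizzled-like domain, was lower by 0.08 and 0.06, and DKK4 was higher by 0.06 starved and lower by 0.22 with serum, at levels from 5.35 to 5.70 that straddle the 25th percentile. Neither passed. The serum value of DKK4 turned on 1 array: it was -0.34 and passed (adjusted p = 0.0409) without serum-treated shControl array 1, and -0.10 (0.578) without array 2.

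Among the 12 receptors and co-receptors, FZD3 was higher and FZD6 lower in shCDK8 cells. They made up 16.7% of the 12 at each time, near the 13.4% and 14.2% of all genes that passed. FZD6, a Frizzled known mainly from planar polarity signalling, read 10.11 and 9.97 in starved shControl cells, 10.10 and 10.13 in serum-treated shControl cells, 9.48 and 9.52 in starved shCDK8 cells, and 9.58 and 9.62 in serum-treated shCDK8 cells. All shCDK8 arrays lay below all shControl arrays. The difference was -0.54 ± 0.07, 1.46-fold lower (adjusted p = 0.000774), starved and -0.51 ± 0.07, 1.43-fold lower (adjusted p = 0.00103), with serum. FZD3, a Frizzled with a role in axon guidance, read 7.78 and 7.81 in starved shControl cells, 7.98 and 7.96 in serum-treated shControl cells, 8.06 and 8.15 in starved shCDK8 cells, and 8.21 and 8.29 in serum-treated shCDK8 cells. At each time the shCDK8 arrays were higher, by 0.31 ± 0.07 (adjusted p = 0.0137) and 0.28 ± 0.07 (adjusted p = 0.0193). The starved call ended without starved shControl array 1 or 2 or starved shCDK8 array 2 (adjusted p = 0.0676, 0.0545 and 0.100), and the serum call without serum-treated shControl array 1 or 2 or serum-treated shCDK8 array 2 (0.0879, 0.108 and 0.116).

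The other 10 receptors did not pass at either time. Averaged over both times, a comparison in which 17 of 40 members (42.5%) and 23.3% of all genes passed, LRP5, FZD4 and LGR5 passed as well, with smaller differences. LRP5, the co-receptor that DKK1 blocks, was higher by 0.20 ± 0.05 (adjusted p = 0.0163), with 8.19, 8.16, 8.19 and 8.21 in shControl and 8.30, 8.43, 8.35 and 8.46 in shCDK8 cells. FZD4 was lower by 0.24 ± 0.07 (adjusted p = 0.0285), reading 7.31, 7.26, 7.26 and 7.31 in shControl and 6.92, 7.11, 6.96 and 7.21 in shCDK8 cells. LGR5, the R-spondin receptor that marks intestinal stem cells, was lower by 0.18 ± 0.05 (adjusted p = 0.0377), at levels of 4.14 to 4.46 that all lie below the 25th percentile of genes. For each of these 3 genes no shCDK8 array overlapped a shControl array, yet each call ended without some of the arrays. For LRP5 these were serum-treated shControl array 1 and array 2 of either shCDK8 group (adjusted p up to 0.0629). For FZD4 they were the 4 shControl arrays and array 1 of either shCDK8 group (up to 0.101), and for LGR5 the 4 shControl arrays and array 2 of either shCDK8 group (up to 0.129). FZD1, FZD2, FZD5, FZD7, FZD8, LRP6 and LGR4 differed by between -0.09 and 0.13 at either time and did not pass.

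The receptors are removed from the surface by the E3 ubiquitin ligases RNF43 and ZNRF3, which differed in their values. RNF43 had the largest difference of all 40 members. It read 8.71 and 8.73 in starved shControl cells, 8.70 and 8.76 in serum-treated shControl cells, 10.01 and 9.98 in starved shCDK8 cells, and 10.00 and 10.04 in serum-treated shCDK8 cells. The 4 arrays of each line lay within 0.1 of each other and the lines were far apart. RNF43 was 2.42-fold higher in shCDK8 cells starved (1.28 ± 0.06, adjusted p = 1.49e-06) and 2.44-fold higher with serum (adjusted p = 1.36e-06). ZNRF3 differed by 0.10 (95% interval -0.07 to 0.28) and 0.05 (-0.13 to 0.22) and did not pass, and both intervals end well below the difference of RNF43.

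**Figure D2:**
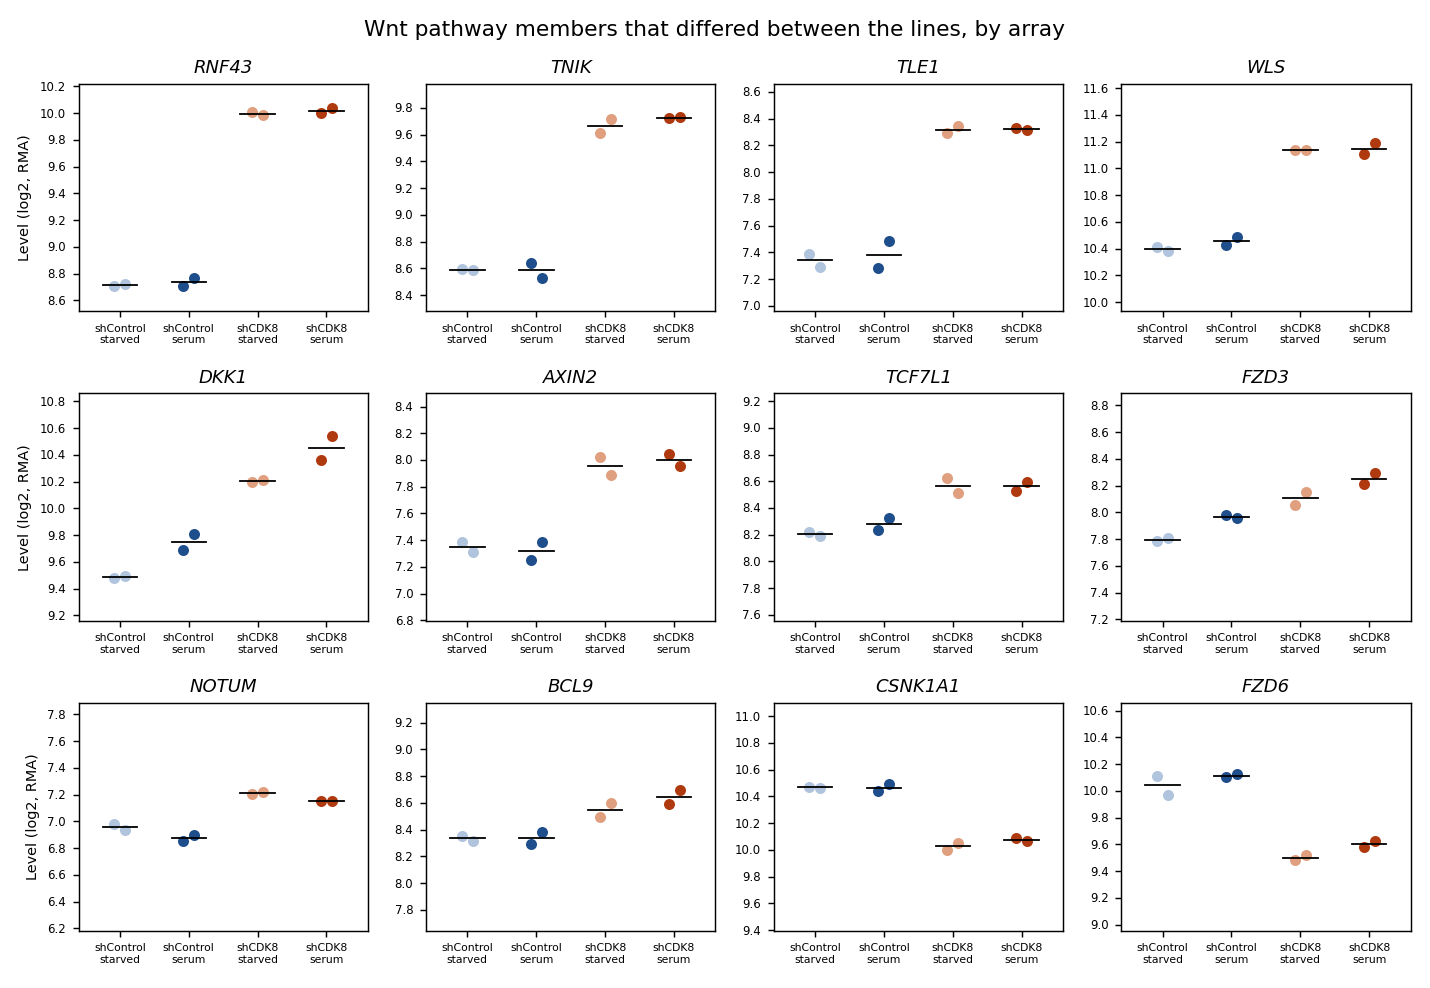
Log2 level of each of the 12 members that passed the test between the lines at either time, 1 point per array, in the 4 groups. Bars are group means; in every panel the shCDK8 arrays lie apart from the shControl arrays of the same time, above them for 10 genes and below them for FZD6 and CSNK1A1.

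Signal from the receptors runs through the Dishevelled proteins. DVL1, DVL2 and DVL3, and NKD1, a Dishevelled-binding inhibitor, did not pass at either time, and NKD1 passed in the average (0.18, adjusted p = 0.0457) without starved shControl array 2. DVL3 passed in the average of both times alone, higher by 0.16 ± 0.05 (adjusted p = 0.0414) with 8.81, 8.81, 8.82 and 8.74 in shControl and 8.96, 8.96, 8.88 and 9.01 in shCDK8 cells. That call ended without any of 7 of the 8 arrays, the exception being serum-treated shCDK8 array 1, and also with the replicate number as a block (adjusted p = 0.0568).

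Within the destruction complex, the scaffold AXIN2 was higher and the kinase CSNK1A1 lower in shCDK8 cells. AXIN2, a Wnt target that is widely used as a readout of the pathway, read 7.39 and 7.31 in starved shControl cells, 7.25 and 7.39 in serum-treated shControl cells, 8.02 and 7.89 in starved shCDK8 cells, and 8.04 and 7.95 in serum-treated shCDK8 cells. Every shCDK8 array was above every shControl array, by 0.61 ± 0.08 on average starved, 1.52-fold (adjusted p = 0.00087), and 0.68 ± 0.08 with serum, 1.60-fold (adjusted p = 0.000444). CSNK1A1 encodes casein kinase 1 alpha, which places the priming phosphate on wild-type beta-catenin. Its levels were 10.47, 10.46, 10.44 and 10.49 in shControl and 10.00, 10.05, 10.09 and 10.07 in shCDK8 cells. All shCDK8 arrays were lower, by 0.44 ± 0.06, 1.36-fold (adjusted p = 0.00139), starved and by 0.39 ± 0.06, 1.31-fold (adjusted p = 0.00283), with serum.

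The RNA of beta-catenin itself showed no detectable difference. CTNNB1 read 11.32 and 11.36 in starved shControl cells, 11.35 and 11.34 in serum-treated shControl cells, 11.37 and 11.36 in starved shCDK8 cells, and 11.39 and 11.37 in serum-treated shCDK8 cells. The 8 arrays lay within 0.1 of each other. The difference was 0.02 (95% interval -0.12 to 0.16, adjusted p = 0.875) starved and 0.03 (-0.10 to 0.17, adjusted p = 0.803) with serum. APC, the scaffold lost in most colorectal cancers, differed by -0.07 and -0.05, and AXIN1, the constitutive axin, by -0.08 and -0.05, and their arrays overlapped between the lines. GSK3B, the kinase that follows casein kinase 1 on beta-catenin, read 9.19, 9.24, 9.26 and 9.31 in shControl and 9.27, 9.43, 9.46 and 9.50 in shCDK8 cells. The lines overlapped across times, though not within either time. GSK3B passed in the average alone (0.16 ± 0.05, adjusted p = 0.0451), and leaving out any of 7 arrays, all but starved shCDK8 array 1, ended the call with adjusted p up to 0.151.

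Among the TCF/LEF factors, TCF7L1, which acts mainly as a repressor of Wnt targets, was higher in shCDK8 cells. It read 8.22 and 8.19 in starved shControl cells, 8.24 and 8.32 in serum-treated shControl cells, 8.62 and 8.51 in starved shCDK8 cells, and 8.53 and 8.59 in serum-treated shCDK8 cells. The lines did not overlap at either time, with differences of 0.36 ± 0.07 (adjusted p = 0.0082) and 0.28 ± 0.07 (adjusted p = 0.0244). The starved call ended without starved shCDK8 array 1 (adjusted p = 0.0681) or starved shControl array 2 (0.0501), and the serum call without any of the 4 serum-treated arrays (0.0616 to 0.162). TCF7L2, the main TCF of colonic epithelium, read 11.22, 11.27, 11.25 and 11.30 in shControl and 11.07, 11.13, 11.23 and 11.20 in shCDK8 cells. Its differences of -0.14 and -0.06 did not pass. LEF1, whose levels of 4.28 to 4.46 lay below the 25th percentile, differed by -0.02 and -0.13 and did not pass.

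The nuclear cofactors held 2 of the 3 largest differences, in TNIK and TLE1. TNIK, a kinase that binds and phosphorylates TCF7L2 in colorectal cancer cells, read 8.59 and 8.59 in starved shControl cells, 8.64 and 8.53 in serum-treated shControl cells, 9.61 and 9.72 in starved shCDK8 cells, and 9.72 and 9.73 in serum-treated shCDK8 cells. The lowest shCDK8 array was well above the highest shControl array, and TNIK was 2.10-fold higher starved (1.07 ± 0.07, adjusted p = 1.03e-05) and 2.20-fold higher with serum (1.14 ± 0.07, adjusted p = 6.17e-06). TLE1, a Groucho corepressor that TCF factors recruit when beta-catenin is absent, read 7.39, 7.29, 7.28 and 7.48 in shControl and 8.29, 8.34, 8.33 and 8.32 in shCDK8 cells. Its 4 shCDK8 arrays lay close together above all shControl arrays, 1.97-fold higher starved (0.98 ± 0.08, adjusted p = 4.59e-05) and 1.92-fold higher with serum (0.94 ± 0.08, adjusted p = 5.33e-05).

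BCL9, the adaptor that links beta-catenin to the Pygopus coactivators, passed with serum and in the average of both times, but not in starved cells. It read 8.36 and 8.31 in starved shControl cells, 8.29 and 8.38 in serum-treated shControl cells, 8.50 and 8.60 in starved shCDK8 cells, and 8.59 and 8.70 in serum-treated shCDK8 cells. The lines did not overlap at either time, with a difference of 0.21 ± 0.07 starved (adjusted p = 0.0894) and 0.31 ± 0.07 with serum (adjusted p = 0.0195). The serum call ended without serum-treated shControl array 1 (adjusted p = 0.138) or 2 (0.0519) or serum-treated shCDK8 array 2 (0.122). In the average BCL9 was higher by 0.26 ± 0.05 (adjusted p = 0.00469), a call that held under each of the 15 alternatives, and with an intensity trend in the variance it also passed in starved cells (0.0402). The paralogue BCL9L differed by 0.06 and -0.01 and PYGO2, a Pygopus coactivator, by -0.0015 and -0.04, and neither passed.

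The members known as direct feedback targets were set side by side, 11 of them measured. RNF43, DKK1, AXIN2 and NOTUM, 36.4% of the 11, were higher in shCDK8 cells at both times, against 7.13% and 7.7% of all genes that were higher. The calls of NOTUM at single times are those that ended without any compared array. None of the 11 passed as lower at either time, though 3 had a negative difference at each time. The median difference over the 11 was 0.10 starved and 0.08 with serum. LGR5 was lower in the average of both times. The other feedback targets did not pass at either time. ASCL2, a stem cell factor of the crypt, differed by -0.16 and 0.08. SP5, whose promoter with 3 core matches is printed above, read 7.88, 7.80, 7.67 and 7.71 in shControl and 7.94, 7.81, 7.83 and 7.64 in shCDK8 cells, and the lines overlapped. The difference of SP5 was 0.04 (95% interval -0.15 to 0.22) starved and 0.05 (-0.14 to 0.23) with serum, intervals that end below the difference of DKK1. Of the members that passed at either time, 8 had a searched promoter entry and 1, DKK1, held the TCF/LEF core. Members on chromosome 8, FZD3 and FZD6 among them, were not searched, and AXIN2 and NOTUM had no promoter entry. Of the measured members that passed at neither time, 18 had a searched entry and 3 held the core (WNT3, TCF7L2 and SP5). Among all promoters 13.8% held it, and the shares of both sets of members were near that.

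Serum for 30 min left the members with no call. In shControl cells 0 of 40 members passed, where 0.462% of all genes passed (0.424% higher and 0.038% lower with serum), and 3 (DKK1, FZD3 and BCL9L) had an unadjusted p below 0.05. In shCDK8 cells 0 of 40 passed, against 0.255% of all genes (0.25% higher and 0.00543% lower), and 1 (DKK1) had an unadjusted p below 0.05. Averaged over both lines 0 of 40 passed, against 0.76% of all genes (0.684% higher and 0.076% lower), with 7 at an unadjusted p below 0.05. The changes with serum ran from -0.18 to 0.26 in shControl and from -0.21 to 0.25 in shCDK8 cells. DKK1 had the largest value in both lines, 0.26 ± 0.08 (adjusted p = 0.359) and 0.25 ± 0.08 (adjusted p = 0.432), and 0.25 ± 0.06 in the average (adjusted p = 0.105). In both lines its serum-treated arrays lay above the starved ones, by much less than the distance between the lines. FZD3 differed with serum by 0.17 in shControl and 0.15 in shCDK8 cells, and BCL9L, a BCL9 paralogue, by 0.20 and 0.13, and neither passed.

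**Figure D3:**
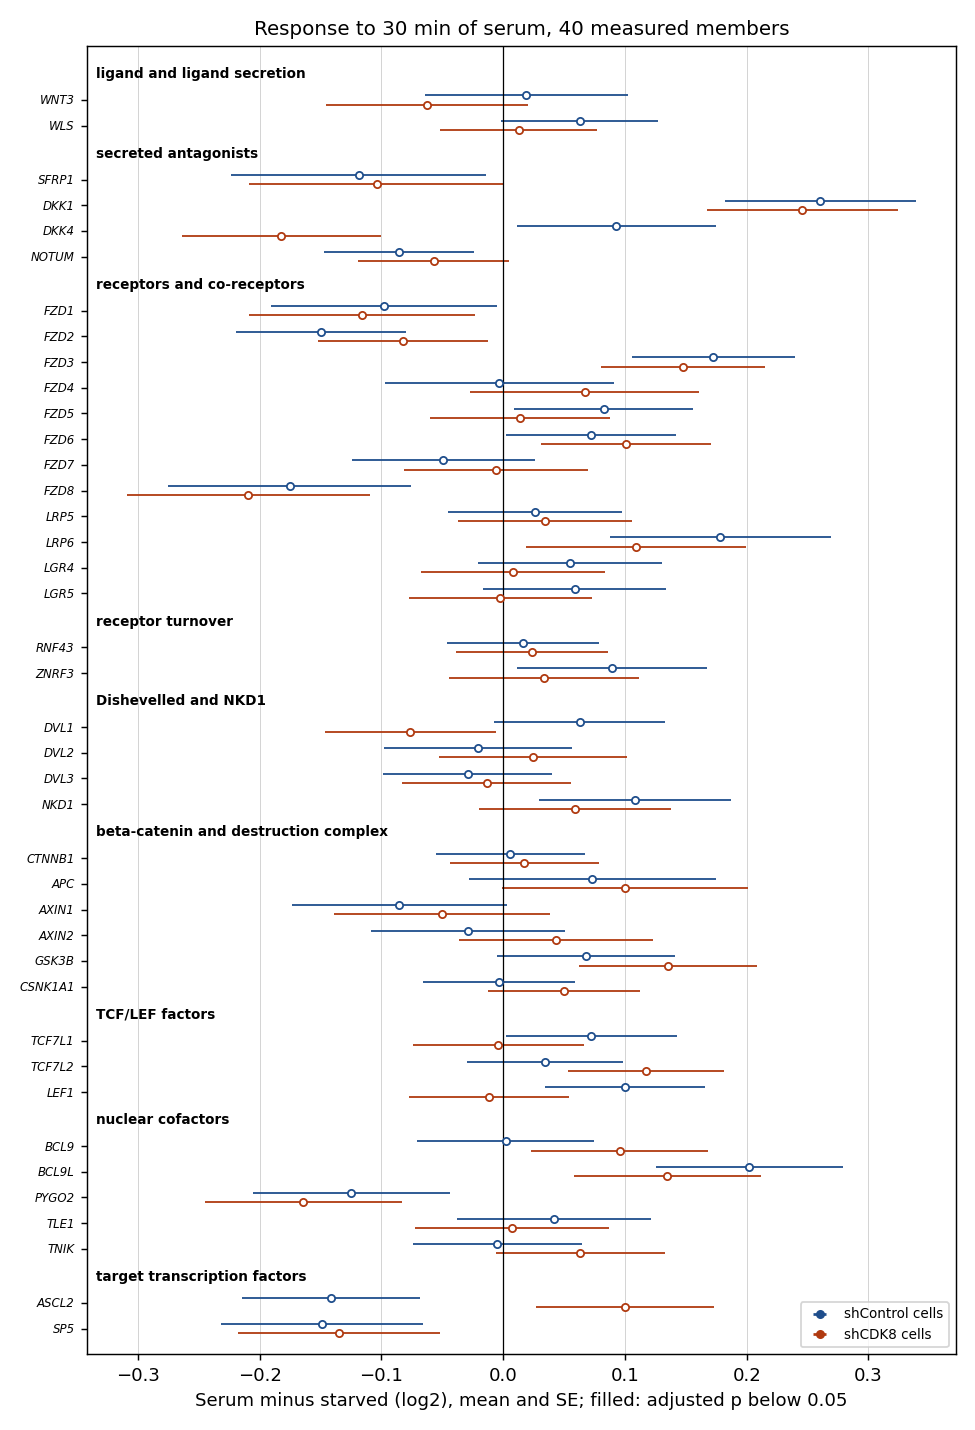
Change in log2 level after 30 min with 10% serum for the 40 measured members, in shControl and in shCDK8 cells, with standard errors. DKK1 lies furthest out with 0.26 and 0.25, and none of the members passed the test in either line.

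The serum responses of the lines were compared through their difference, for which 0 of 40 members and 0% of all genes passed. Of the members, 2 had an unadjusted p below 0.05 (limma). DKK4 read 5.48, 5.49, 5.46 and 5.70 in shControl and 5.56, 5.52, 5.35 and 5.37 in shCDK8 cells, a difference of responses of -0.28. ASCL2 read 6.29, 6.38, 6.23 and 6.14 in shControl and 6.22, 6.11, 6.30 and 6.23 in shCDK8 cells, a difference of responses of 0.24. For DKK4 the value rests in part on serum-treated shControl array 2, which stood above the other 7 arrays. For the 12 members called between the lines, the difference at one time was therefore not shown to differ from that at the other.

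A further 102 pathway genes that are not among the 42 were listed by role, and 97 were measured. Between the lines 15 of the 97 (15.5%) passed in starved cells, 10 higher and 5 lower in shCDK8 cells, and 18 (18.6%) passed with serum, 13 higher and 5 lower. These shares are near those of all genes, 13.4% and 14.2%. The TCF target genes held 10 of the calls at each time, and the other lists held the remaining 5 and 8. None of 18 other Wnt ligands passed at either time (limma), with 1 at an unadjusted p below 0.05 starved and 0 with serum, and the widest averages were WNT10A (-0.15), WNT3A (0.12), WNT7B (0.10) and WNT8B (-0.09).

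Of 13 other receptors and R-spondins, 2 (15.4%) were higher at both times and none lower, a share near the 13.4% and 14.2% of all genes that passed. PTK7, a pseudokinase co-receptor, read 9.55, 9.49, 9.45 and 9.53 in shControl and 10.13, 10.24, 10.18 and 10.32 in shCDK8 cells. The lines did not overlap, and PTK7 was 1.59-fold higher starved (0.67 ± 0.08, adjusted p = 0.00039) and 1.69-fold higher with serum (0.76 ± 0.08, adjusted p = 0.000166). ROR1, a receptor tyrosine kinase for Wnt5a, was higher by 0.32 (adjusted p = 0.033) and 0.39 (adjusted p = 0.0117). The starved call of ROR1 ended without any of the 4 starved arrays (0.056 to 0.193), and the serum call without serum-treated shControl array 1 (0.0999) or serum-treated shCDK8 array 1 (0.0769). RSPO2, a ligand that protects Frizzled receptors from RNF43 and ZNRF3, differed by 0.12 and RYK, a Wnt-binding pseudokinase, by 0.11 in the average, and neither passed.

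Of 10 other secreted antagonists, 1 (10%), SOSTDC1, passed with serum alone, where 14.2% of all genes passed. SOSTDC1 was higher by 0.23 (adjusted p = 0.0434), at levels of 4.13 to 4.43 that all lie below the 25th percentile. That call ended without any 1 of the 8 arrays. APCDD1 (-0.09), SOST (-0.08) and DKK3 (0.08) did not pass in the average. Of 19 other cytoplasmic regulators, 1 (5.26%) was higher starved and 2 (10.5%) with serum, against 13.4% and 14.2% of all genes that passed. RNF146, the ligase that with the tankyrases directs axin to degradation, read 7.73, 7.76, 7.73 and 7.76 in shControl and 8.22, 8.09, 8.26 and 8.16 in shCDK8 cells, and was higher by 0.41 (adjusted p = 0.00468) and 0.46 (adjusted p = 0.00231) with no overlap. TNKS, a tankyrase, was higher by 0.19 (adjusted p = 0.0783) starved and by 0.26 (adjusted p = 0.0241) with serum, and the latter call ended without any of the 4 serum-treated arrays (0.0895 to 0.139). In the average TNKS was higher by 0.22 (adjusted p = 0.00496), a call that held under each of the 15 alternatives. DACT1, a Dishevelled antagonist, passed in the average alone (0.19, adjusted p = 0.0102), and TNKS2 did not (0.13).

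Of 15 other nuclear regulators, 1 was higher and 1 lower starved (13.3%), and 2 were higher and 1 lower with serum (20%), against 13.4% and 14.2% of all genes. TBL1XR1, a subunit of corepressor complexes that also binds beta-catenin, read 10.62, 10.51, 10.58 and 10.52 in shControl and 10.87, 10.87, 10.91 and 10.94 in shCDK8 cells. It was higher by 0.30 (adjusted p = 0.0147) and 0.38 (adjusted p = 0.0048), and the starved call ended without starved shCDK8 array 1 (0.0727) or 2 (0.0749) or starved shControl array 2 (0.0932). TLE2, a second Groucho corepressor, differed in the opposite direction to TLE1. It read 8.35, 8.30, 8.23 and 8.31 in shControl and 8.05, 8.11, 7.93 and 7.99 in shCDK8 cells, lower by 0.24 (adjusted p = 0.0413) and 0.31 (adjusted p = 0.0125), and the starved call ended without any 1 of the 8 arrays, the serum call without serum-treated shCDK8 array 1 (0.0779) or shControl array 2 (0.103). TLE3, also a Groucho corepressor, was higher and passed in the average alone (0.20, adjusted p = 0.0166). That call ended without any of 4 arrays, shControl serum-treated 1 or starved 2 and shCDK8 serum-treated 1 or starved 2. EP300, an acetyltransferase coactivator, was lower and passed in the average alone (-0.18, adjusted p = 0.0158). The call of EP300 ended without serum-treated shControl array 1 or starved shCDK8 array 1. NLK, a kinase that acts on TCF/LEF factors and was named after its value was seen, was the second gene higher with serum (0.30, adjusted p = 0.0264), and its call ended without any of the 4 serum-treated arrays (0.0526 to 0.148).

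TCF target genes described in colorectal cells moved in both directions. Of 22 measured, 10 (45.5%) passed at each time, against 13.4% and 14.2% of all genes. The list was chosen with earlier results of these data known, so this share may in part reflect that choice. At each time 6 were higher, against 7.13% and 7.7% of all genes, and 4 were lower, against 6.28% and 6.54%. BMP4, a growth factor of the BMP family, had the largest difference, with 8.91 and 8.56 in starved shControl cells, 9.05 and 9.00 in serum-treated shControl cells, 11.59 and 11.60 in starved shCDK8 cells, and 11.70 and 11.74 in serum-treated shCDK8 cells. It was 7.24-fold higher starved (adjusted p = 1.81e-07) and 6.47-fold higher with serum (adjusted p = 2.4e-07), and no arrays overlapped. BAMBI, a pseudoreceptor that dampens BMP and TGF-beta signalling, read 6.75, 6.91, 7.02 and 7.00 in shControl and 8.68, 8.62, 8.84 and 8.98 in shCDK8 cells. That was 3.53-fold higher starved (adjusted p = 5.77e-07) and 3.73-fold higher with serum (adjusted p = 4.2e-07).

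SOX9, a transcription factor of crypt progenitors, read 8.07, 7.89, 7.87 and 7.91 in shControl and 9.03, 8.99, 9.24 and 9.27 in shCDK8 cells. The lines did not overlap, and SOX9 was 2.04-fold higher starved and 2.57-fold higher with serum (adjusted p = 2.1e-05 and 2.73e-06). CD44, an adhesion receptor and crypt marker, read 10.81, 10.66, 10.75 and 10.73 in shControl and 11.75, 11.78, 11.82 and 11.77 in shCDK8 cells, 2.04-fold and 2.07-fold higher (adjusted p = 1.34e-05 and 1.08e-05). The other genes past the threshold were named after their values were seen. SOX4 was higher by 0.87 and 0.96, and MYC by 0.26 and 0.34, though the starved call of MYC ended without any of the 4 starved arrays (adjusted p 0.0554 to 0.103). BIRC5 was lower by 0.44 and 0.35, ID2 by 0.38 and 0.40, PLAUR by 0.28 and 0.33, and MET by 0.23 and 0.24. With the mean of its probe sets, BIRC5 was lower by 0.27 in starved cells (adjusted p = 0.0211). Among these 4 lower genes, BIRC5 starved was the only call at a single time that held without each array in turn. The starved call ended for ID2 without starved shControl array 1 or starved shCDK8 array 2 (0.126 and 0.142), for PLAUR without any starved array but shControl array 1 (0.0505 to 0.135), and for MET without any of the 8 arrays (0.0507 to 0.166). The serum call ended for BIRC5 without serum-treated array 1 of either line (0.0572 and 0.0522), for ID2 without any serum-treated array but shCDK8 array 2 (0.0651 to 0.0862), for PLAUR without serum-treated shControl array 1 or shCDK8 array 2 (0.0762 and 0.0515), and for MET without any of the 4 serum-treated arrays (0.0674 to 0.164). CCND1, the cyclin often named as a Wnt target, differed by 0.10 and 0.15 and did not pass.

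**Figure D4:**
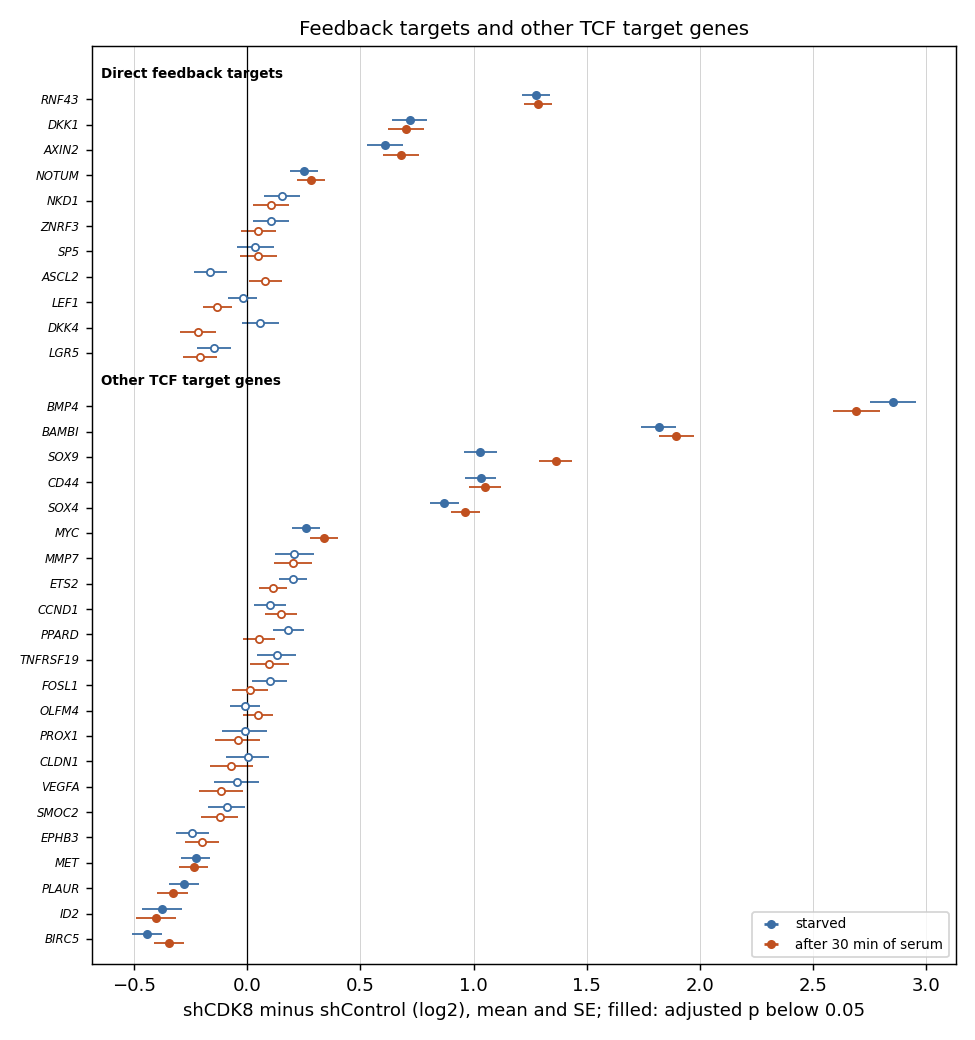
Difference in log2 level between shCDK8 and shControl cells for the direct feedback targets among the members and for the other TCF target genes, starved and serum-treated, with standard errors. BMP4, BAMBI, RNF43 and SOX9 lie furthest to the right and BIRC5 and ID2 furthest to the left, so known targets lay on both sides of 0.

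With serum, 2 of the 97 other pathway genes (2.06%) rose in shControl cells, where 0.462% of all genes passed, both TCF targets that were named after their values were seen. FOSL1, an AP-1 factor, read 8.47 and 8.30 starved and 8.84 and 8.90 with serum in shControl cells, and 8.54, 8.43, 8.86 and 8.91 in the same order in shCDK8 cells. It rose by 0.49 (adjusted p = 0.0303) in shControl cells and changed by 0.40 (adjusted p = 0.12) in shCDK8 cells. ETS2, an ETS factor, rose by 0.36 (adjusted p = 0.0446) in shControl cells and changed by 0.27 (adjusted p = 0.22) in shCDK8 cells. The calls of both genes in shControl cells ended without any 1 of the 8 arrays. None passed in shCDK8 cells, with 14 of the 97 at an unadjusted p below 0.05 (limma), and the difference of the responses passed for none of the 97, with 2 at an unadjusted p below 0.05. In the average over both lines 3 of the 97 (3.09%) rose, against 0.76% of all genes, namely FOSL1, ETS2 and ID2 (adjusted p = 0.0043, 0.00843 and 0.0091), though ETS2 did not pass without serum-treated shControl array 1 (0.0502) or starved shCDK8 array 1 (0.0512), nor ID2 without serum-treated shCDK8 array 2 (0.0515).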

How the data were processed

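Total RNA of 8 samples in 4 groups of 2 was measured on Affymetrix arrays. The deposited values are log2 probe set summaries made by the authors with RMA, per the submitters' processing notes. RMA corrects background, equalizes the distributions of the arrays and averages probes, which narrows differences of dim genes. The version of RMA and a joint normalization of the arrays are not stated in the labels.

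Of 33297 probe sets, 19460 were paired with 1 gene, 1754 with several and 12083 with none. The first kind gave 18417 genes, each read from its probe set with the highest mean. With limma 3.58.1 (R 4.3.3), 1 model of the 4 group means was fitted to all genes, with 4 residual and 5.49 prior degrees of freedom, no filter and no further normalization. Two-sided p-values were corrected per comparison over all genes (Benjamini-Hochberg), with a threshold of 0.05. A gene below that threshold is said to have passed. Errors of differences are SEs of the model. The serum contrasts share their starved arrays with the line contrasts. The procedure was run on simulated data with independent noise and shifts added to a single group, which checks the code and not the calls reported here. Figures were drawn with matplotlib 3.10.9.

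The members, the lists of other pathway genes and the tests were chosen with earlier results of these data known. Named were all members past the threshold in any comparison, members that a role group turns on, and up to 4 genes per further list with the widest average difference between the lines. Same-numbered duplicates did not deviate together across groups (correlations from -0.19 to 0.13). These values cannot show whether same-numbered samples were prepared together, and the arrays were not paired by number in the main model.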

Additional observations from a re-analysis of the deposited data

How the results depend on the processing

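The processing was varied by letting the variance prior follow intensity (a trend), fitting the compared arrays alone, blocking on replicate number, dropping genes under the 25th percentile, cyclic loess, median centring, averaging probe sets per gene, testing every probe set, and omitting each of the 8 arrays in turn. RNF43, TNIK, TLE1, WLS, DKK1, AXIN2, CSNK1A1 and FZD6 passed between the lines at both times under each of the 16 alternatives, with the largest adjusted p between 0.000102 (RNF43) and 0.0307 (CSNK1A1). No named gene past the threshold changed direction under any of them.

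Leaving out 1 array left 8 to 11 members called between the lines in starved cells, 8 to 12 with serum and 12 to 15 in the average, against 11, 12 and 17 with all arrays. The array left alone in its group was taken to vary as the rest do. For the other TCF target genes the counts became 6 to 9 (6 without starved shCDK8 array 2) and 6 to 10 (6 without serum-treated shControl array 1), against 10 and 10, and 11 to 12 in the average. Testing every probe set left 6 of these targets called in starved cells, and 10, 9 and 13 members in the 3 line comparisons. With an intensity trend, 1 member, DKK1, passed in the average serum response (adjusted p = 0.00469), TCF7L2 passed starved (0.0274) and in the average (0.0182), BCL9 passed starved (0.0402), GSK3B passed with serum (0.0318), and LGR5 no longer passed in the average (0.0539). With the replicate number as a block, 11, 12 and 16 members passed between the lines. Among the members, calls at single times of NOTUM, FZD3, TCF7L1 and BCL9 did not hold under every alternative, whereas their calls in the average held under all 15. Among the other named genes, a call at a single time was also lost for ROR1, SOSTDC1, TNKS, TBL1XR1, TLE2, NLK, MYC, BIRC5, ID2, PLAUR, MET, ETS2 and FOSL1. Of the values in all settings, 195 calls of the named genes were lost, 32 were gained, and 313 values changed sign where neither setting passed. The counts over all genes fell from 2470 to as few as 1468 starved and from 2624 to 1452 with serum when 1 array was left out. In the serum comparisons they ran from 33 to 85 in shControl and from 23 to 51 in shCDK8 cells, and with the trend they were 128 and 100. With 2 arrays per group, the SE of a member's difference at a single time was 0.06 to 0.10, and the smallest difference of a member that passed there was 0.25 (NOTUM).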
